A study of Homo sapiens with 3 samples.

Results

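The imprinted growth genes H19, MEG3, DLK1, PEG3, PEG10, MEST, SNRPN, NDN and PLAGL1 were followed on 3 expression arrays of Rh-30 cells, an established cell line of alveolar rhabdomyosarcoma (ARMS) that carries the PAX3-FOXO1 fusion gene. All probe sets that the platform annotation pairs with these 9 symbols were taken. They came to 36 probe sets, of which 22 were named with 1 gene and 14 with several. The arrays named 19775 genes by probe sets of their own, among them 8 of the 9 members. H19 was named only together with MIR675.

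An imprinted gene is transcribed mainly from the copy inherited from a single parent, because DNA methylation laid down in the egg or the sperm marks the copies differently. MEST, PEG3, PEG10, PLAGL1, DLK1, NDN and SNRPN are active on the father's copy, and the long non-coding RNAs H19 and MEG3 on the mother's. Many imprinted genes act on growth before birth and are turned down in adult tissue. Skeletal muscle precursors express several of them, and imprinting at the region of IGF2 and H19 is often altered in rhabdomyosarcoma. The arrays measure the RNA of both copies together and do not tell them apart.

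Each condition was 1 array of total RNA from Rh-30 cells transfected with 5 nM of siRNA and harvested after 24 h. The groups were a control siRNA (siCont), an siRNA against the junction where PAX3 joins FOXO1 in the fusion transcript (siPF), and an siRNA against B7-H3, the protein of CD276 (siB7-H3). A single siRNA stood for each target. With 1 array per condition no replicate error and no test exist, so every difference below lies between 2 arrays, and both knockdowns were set against the same siCont array. Values are deposited intensities on a linear scale, in arbitrary units, and differences are on the log2 scale, where 1 is 2-fold.

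On these arrays PEG3, PEG10 and PLAGL1 were lower in siPF at every bright probe set they have, and the other members were either bright with smaller differences or dim. PEG3, PEG10 and PLAGL1 together have 7 probe sets named with 1 gene, and the log2 difference of siPF against siCont ran from -0.87 to -0.52 over them. In siB7-H3 the same 7 probe sets ran from -0.42 to 0.11. MEST was among the brightest probe sets of the array and differed by 0.16 in siPF, a direction that turned under quantile normalization, and by 0.29 in siB7-H3. H19, DLK1 and NDN were in the dim range on all arrays. Fewer cells that express a gene and less RNA per cell cannot be told apart in such bulk RNA.

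The level of a probe set decided how far its difference could be read. A probe set was called bright here when it reached the 60th percentile of its own array, an intensity of 132 with siCont, 137 with siPF and 134 with siB7-H3, and dim when it did not. Of the 36 probe sets, 18 were bright on all 3 arrays and 18 were dim on all 3. With the genes ranked by mean level and cut into 10 equal groups, the SD of the log2 difference between siPF and siCont across genes was 0.27 in group 10, the brightest, which held MEST, PEG3 and PEG10. It was 0.31 in group 9, which held PLAGL1, and 0.34 in group 8, which held MEG3. These SDs describe the spread between genes and are no replicate error. In group 3, which held NDN and the only SNRPN probe set named with 1 gene, the SD was 1.34.

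**Figure D1:**
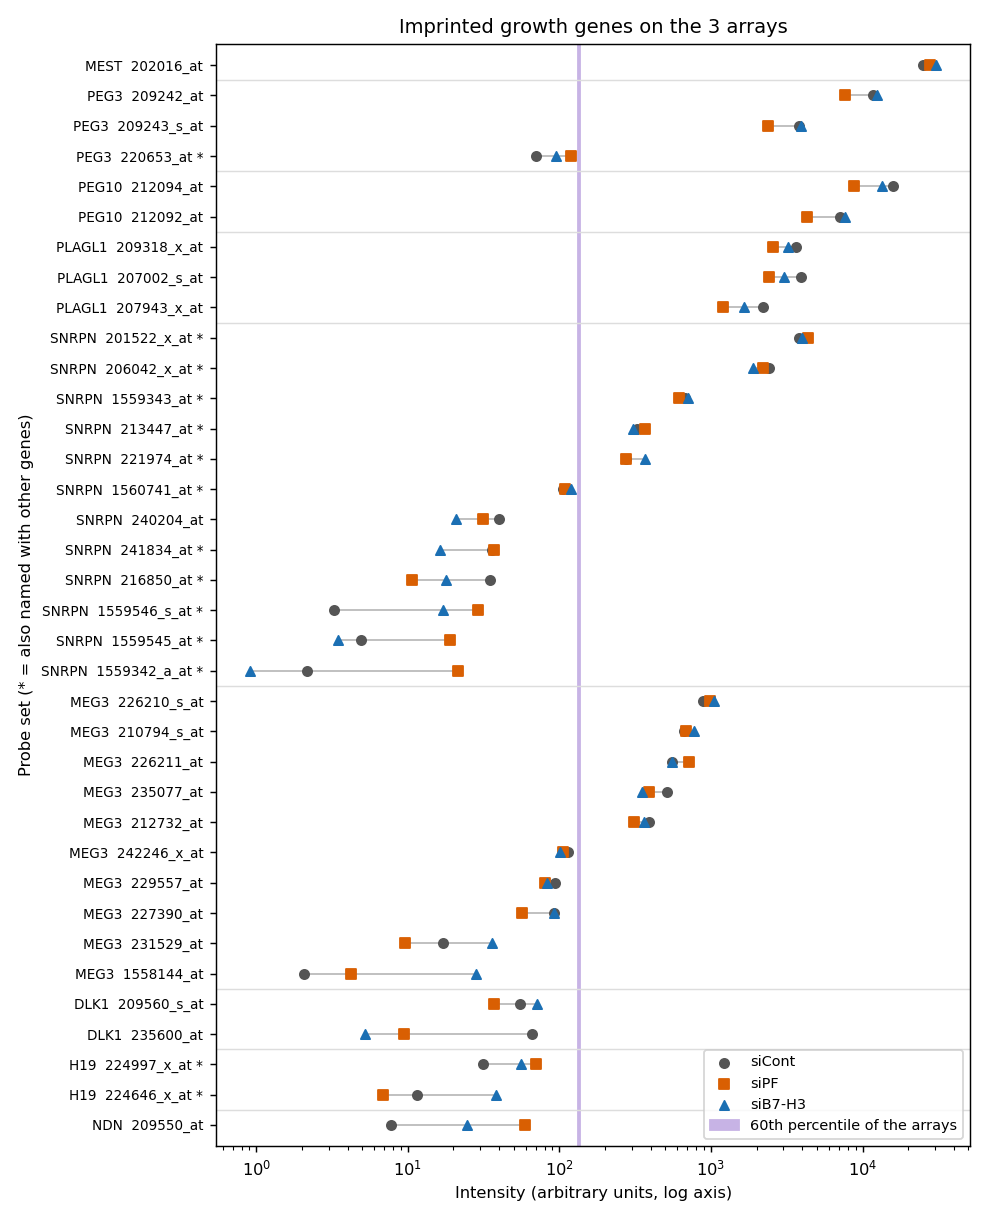
Intensity of each of the 36 probe sets on a log axis, in arbitrary units, with 1 point per array for siCont, siPF and siB7-H3 and the 60th percentile of the arrays as a vertical band. The siPF points of PEG3 (209242_at, 209243_s_at), PEG10 and PLAGL1 lie left of the siCont points, and all probe sets of DLK1, H19 and NDN lie left of the band.

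The siRNA targets and markers of muscle were read on the same arrays. CD276 had an intensity of 1486 with siCont, 1381 with siPF and 362 with siB7-H3. FOXO1, which supplies the end of the fusion transcript, had 678, 249 and 650.0 in the same order. PAX3, which supplies its beginning, had 381, 329 and 398, or log2 differences of -0.21 and 0.06. The FOXO1 and PAX3 values come from 1 probe set each, and neither is named for the fusion transcript. The level of the fusion transcript itself was thus not read. Of 11 muscle and rhabdomyosarcoma markers, 9 were bright on all 3 arrays, the exceptions being MYF6 and TFAP2B, and of 15 markers of leukocytes, epithelium, endothelium and fibroblasts, 1 was (PECAM1). MYOG, which encodes the differentiation factor myogenin, had 605 with siCont, 3386 with siPF and 1269 with siB7-H3, and its part in the differences of the imprinted genes was not tested.

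Among transcription regulators, PEG3 was bright and lower in siPF. PEG3 encodes a large zinc-finger protein that is expressed in muscle stem cells and takes part in the p53 response. Its brightest probe set, 209242_at, had an intensity of 11743 with siCont, 7640 with siPF and 12407 with siB7-H3. The siPF array was the low one, at 0.651 of siCont, and the other two were close, with log2 differences of -0.62 in siPF and 0.08 in siB7-H3. Another probe set, 209243_s_at, gave 3798, 2376 and 3931 in the same order, or -0.68 and 0.05. Set directly against siB7-H3, siPF differed by -0.70 at the first and by -0.73 at the second. A probe set named with both ZIM2 and PEG3, 220653_at, was dim on all arrays with 70.5 with siCont, 119 with siPF and 94.7 with siB7-H3. Its order of arrays was not that of the bright ones.

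PLAGL1 encodes a zinc-finger transcription factor, also called ZAC, that restrains the cell cycle and is known as a regulator of other imprinted genes. The probe set with the highest mean level, 209318_x_at, had an intensity of 3658 with siCont, 2560 with siPF and 3214 with siB7-H3, or log2 differences of -0.52 and -0.19. At 207002_s_at the intensities were 3917, 2415 and 3041, or -0.70 and -0.36. At 207943_x_at they were 2202, 1202 and 1647, or -0.87 and -0.42. In all 3 probe sets siCont was the highest array, siB7-H3 the middle and siPF the lowest. The names of all 3 end in _x_at or _s_at, which the manufacturer gives to probe sets that can bind several transcripts, of the same gene or of others.

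NDN encodes necdin, a protein of the MAGE family that restrains cell division in neurons. Its only probe set, 209550_at, had an intensity of 7.70 with siCont, 59.2 with siPF and 24.5 with siB7-H3. All 3 values were dim, and the log2 differences of 2.94 in siPF and 1.67 in siB7-H3 lie at a level where the SD across genes was 1.34 and 1.36.

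PEG10 had the largest difference among the bright members by the probe set that stands for a gene. PEG10 derives from a retrotransposon, encodes Gag-like and Gag-Pol-like proteins and is needed for the placenta. Its brightest probe set, 212094_at, had an intensity of 15888 with siCont, 8744 with siPF and 13424 with siB7-H3, log2 differences of -0.86 and -0.24, so that siPF stood at 0.550 of siCont. At 212092_at the intensities were 7104, 4270 and 7675, or -0.73 and 0.11. In both probe sets siPF was the low array, while siB7-H3 was below siCont in the first and above it in the second. Set directly against siB7-H3, siPF differed by -0.62 and by -0.85. SGCE, which encodes epsilon-sarcoglycan and lies next to PEG10 in the same imprinted region, had 3746 with siCont, 3614 with siPF and 4000 with siB7-H3, or -0.05 and 0.09.

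The genes most like PEG10 were found among the 10607 genes bright on any array, by the distance between pairs of log2 differences to siCont. They were ABHD13 at a distance of 0.027, TMEM47 at 0.028 and LYSMD1 at 0.035. TMEM47, a membrane protein gene, had an intensity of 5275 with siCont, 2937 with siPF and 4526 with siB7-H3. ABHD13 had 199, 108 and 168, and LYSMD1 had 160, 86.1 and 134. ABHD13 was thus dim on the siPF array and LYSMD1 on both knockdown arrays. The likeness was over 3 arrays only, and the 2 differences share the siCont array.

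MEST encodes a protein of the alpha/beta hydrolase fold family and is high in mesodermal tissue of the embryo. Its single probe set, 202016_at, had an intensity of 25049 with siCont, 27969 with siPF and 30608 with siB7-H3. Both knockdown arrays were above siCont, by log2 differences of 0.16 and 0.29, which are small beside the values of PEG10. The direction in siPF turned under quantile normalization, which forces the arrays to 1 common distribution, where it was -0.06, and the difference in siB7-H3 came to 0.09. COPG2, a neighbour of MEST that encodes a coat protein of Golgi vesicles, had 1301 with siCont, 1428 with siPF and 1276 with siB7-H3, or 0.14 and -0.03, and its other probe set gave 1.51 and 0.66.

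SNRPN encodes SmN, a protein of the splicing machinery, on a transcript that also encodes SNURF and continues into the snoRNA genes of the Prader-Willi region. It was read almost entirely through shared probe sets, 11 of its 12. The brightest, 201522_x_at, is named with SNURF and SNRPN and had an intensity of 3808 with siCont, 4347 with siPF and 3965 with siB7-H3, or log2 differences of 0.19 and 0.06. Another of the same names, 206042_x_at, had 2402, 2191 and 1899, or -0.13 and -0.34. The arrays thus took a different order in these probe sets named with the same genes. The third SNURF and SNRPN probe set, 1560741_at, was dim at 106, 108 and 119.

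Of the 8 probe sets that carry SNRPN beside IPW, PWARSN and snoRNA names, 3 were bright. Their log2 differences in siPF were -0.14 at 1559343_at, 0.18 at 213447_at and -0.02 at 221974_at, and in siB7-H3 they were 0.07, -0.09 and 0.41. The other 5 were dim, between 0.913 and 36.8 over all arrays, with differences from -1.71 to 3.30 in siPF. The probe set named with SNRPN alone, 240204_at, was also dim, with an intensity of 39.8 with siCont, 31.5 with siPF and 20.7 with siB7-H3. At the same region UBE3A, an E3 ubiquitin ligase gene active on the mother's copy in neurons, had 8312, 7472 and 8193, or -0.15 and -0.02, and its other probe sets ran from -0.99 to 0.76 in siPF. MAGEL2, a relative of NDN, was dim at 2.57, 2.49 and 1.39.

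MEG3, a long non-coding RNA with growth-restraining activity, was bright at 5 of its 10 probe sets. The brightest, 226210_s_at, had an intensity of 882 with siCont, 993 with siPF and 1053 with siB7-H3, or log2 differences of 0.17 and 0.26. At 210794_s_at the intensities were 667, 680 and 775. At 226211_at they were 556, 713 and 555, so that siPF alone stood above the other two. The remaining bright probe sets lay below siCont in both knockdowns. At 235077_at the intensities were 515, 393 and 353, or -0.39 and -0.54, and at 212732_at they were 388, 312 and 361, or -0.32 and -0.11. Over the 5 bright probe sets the median log2 difference was 0.03 in siPF and -0.0032 in siB7-H3, with 3 above and 2 below 0 in siPF. Of the 5 dim ones, 1558144_at went from 2.07 in siCont to 4.19 in siPF and 28.0 in siB7-H3, the highest log2 difference of any member in siB7-H3 at 3.76.

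DLK1, at the same locus as MEG3, encodes a transmembrane protein with EGF-like repeats, related to the Notch ligands, that holds back differentiation of fat precursors. Both of its probe sets were dim. At 209560_s_at the intensity was 55.1 with siCont, 37.2 with siPF and 71.1 with siB7-H3, or log2 differences of -0.57 and 0.37. At 235600_at it was 65.6, 9.44 and 5.21, or -2.80 and -3.66. The probe sets thus disagreed on siB7-H3, which was the highest array in the first and the lowest in the second. DIO3, at the far side of the locus, was dim at 13.6, 13.1 and 32.8.

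H19 is a long non-coding RNA, one of the most abundant of the embryo, and carries the hairpin of miR-675. Its probe sets bear both names in the platform annotation, and the arrays do not measure the mature miRNA. At 224997_x_at the intensity was 31.4 with siCont, 70.3 with siPF and 55.5 with siB7-H3, or log2 differences of 1.16 and 0.82. At 224646_x_at it was 11.4, 6.87 and 37.9, or -0.73 and 1.73. All 6 values were dim and the probe sets disagreed on the direction in siPF. IGF2, the growth factor gene across the imprinting control region from H19, has 3 probe sets, all shared with other names. Only the brightest, shared with the readthrough gene INS-IGF2, was read. It had 13898 with siCont, 18108 with siPF and 15446 with siB7-H3, or 0.38 and 0.15. CDKN1C, a cell cycle inhibitor gene further along the same cluster, was dim at 29.8, 31.0 and 22.0, and its other probe sets ran from -1.75 to 3.22 in siPF.
To show what the second name of the H19 probe sets stands for, the mature miRNAs of its hairpin are given as RefSeq has them on GRCh38.p14, minus strand, with the seed (bases 2 to 8) in capitals. They lie at chr11:1996800-1996822 and chr11:1996768-1996787, and their seeds differ.
hsa-miR-675-5p: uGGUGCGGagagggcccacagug
hsa-miR-675-3p: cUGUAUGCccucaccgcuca

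**Figure D2:**
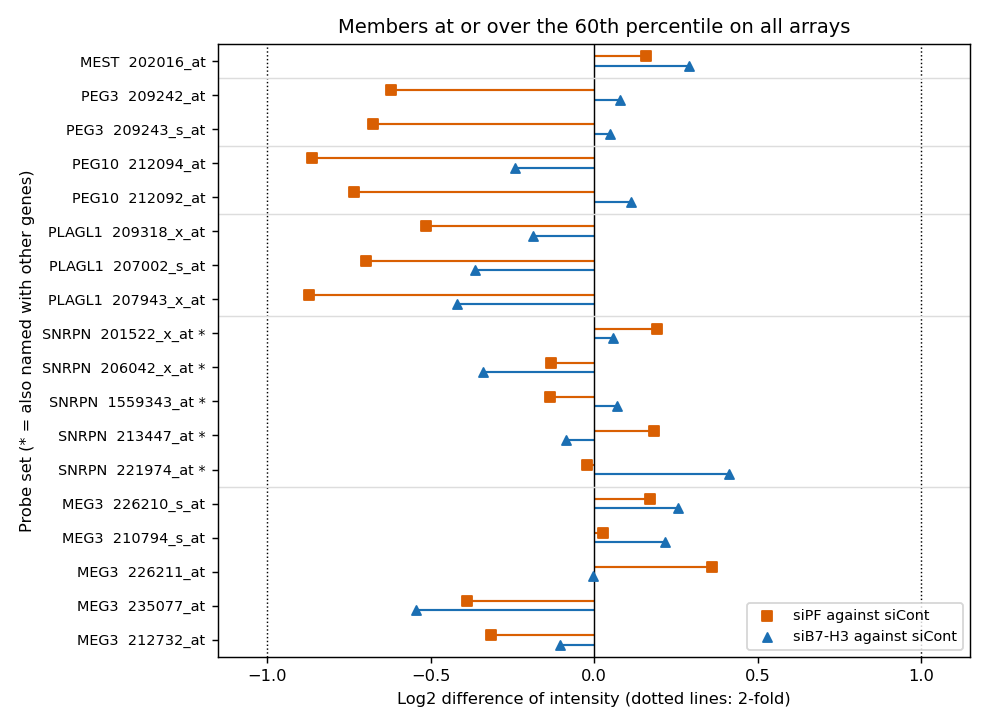
Log2 difference of intensity against siCont on the x axis for the 18 probe sets that were bright on all 3 arrays, with squares for siPF, triangles for siB7-H3 and dotted lines at 2-fold. The 6 probe sets furthest to the left in siPF belong to PEG3, PEG10 and PLAGL1, at -0.87 to -0.62, and no point passes 2-fold.

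Counted over the probe sets, no bright member reached 2-fold. In siPF 6 of the 18 bright probe sets lay above siCont and 12 below, with a median log2 difference of -0.23, and 6 were at least 1.5-fold lower, 2 each of PEG3, PEG10 and PLAGL1. In siB7-H3 9 lay above and 9 below, with a median of 0.02, and the lowest, at -0.54, belonged to MEG3. None of the 18 was 1.5-fold lower there. Probe sets of a gene share its RNA and are not separate samples, and MEG3 and SNRPN hold 5 each of the 18. No share over all bright probe sets was taken, so these counts are not weighed against the array.

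To set this beside the rest of the array, each gene was given by its brightest probe set among those named with it alone, and H19 by its shared one. MEST, PEG3, PEG10 and PLAGL1 then fell in the brightest 3955 genes, groups 9 and 10 of the ranking by level. PEG3 and PEG10, 2 of these 4, were at least 1.5-fold lower in siPF than in siCont, where 2.68% of these 3955 genes were. None of the 4 was 1.5-fold lower in siB7-H3, where 1.67% of the 3955 were. Between both knockdowns, 2 of the 4 (PEG3 and PEG10) were 1.5-fold lower in siPF, where 2.15% of the 3955 were. The members are too few for a share to be read from them, and they were chosen with earlier results of these arrays known.

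Past 2-fold only dim members were found. In siPF, NDN and H19 were at least 2-fold higher than in siCont, 2 of 9, where 9.72% of all genes were, and no member was 2-fold lower, where 9.39% were. With a gene given by the median of its probe sets, or without probe sets ending in _x_at or _s_at, the split was 1 higher (NDN) and 1 lower (DLK1). In siB7-H3 NDN was 2-fold higher, 1 of 9, where 8.75% of all genes were, and no member was lower, where 9.45% were. Between siPF and siB7-H3, NDN was 2-fold higher in siPF, where 10.0% of all genes were, and no member was lower, where 8.87% were. Among the genes that were dim on all 3 arrays the share at least 2-fold higher was 19.4% in siPF and 17.9% in siB7-H3, so the counts of NDN and H19 lie in a range where such differences are frequent. Of the 5 members bright at that probe set (MEST, PEG3, PEG10, PLAGL1 and MEG3), none passed 2-fold in either knockdown. Among all genes whose higher array reached the 60th percentile, 2.50% did so in siPF and 1.62% in siB7-H3. Over the 9 members the log2 differences had a median of -0.33 for siPF, where all genes had 0.02, and of 0.26 for siB7-H3, where all genes had 0.0045. However, 4 of the 9 values come from dim probe sets. The -0.33 is itself the value of a dim one, SNRPN 240204_at, and the median became 0.16 with shared probe sets allowed.

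**Figure D3:**
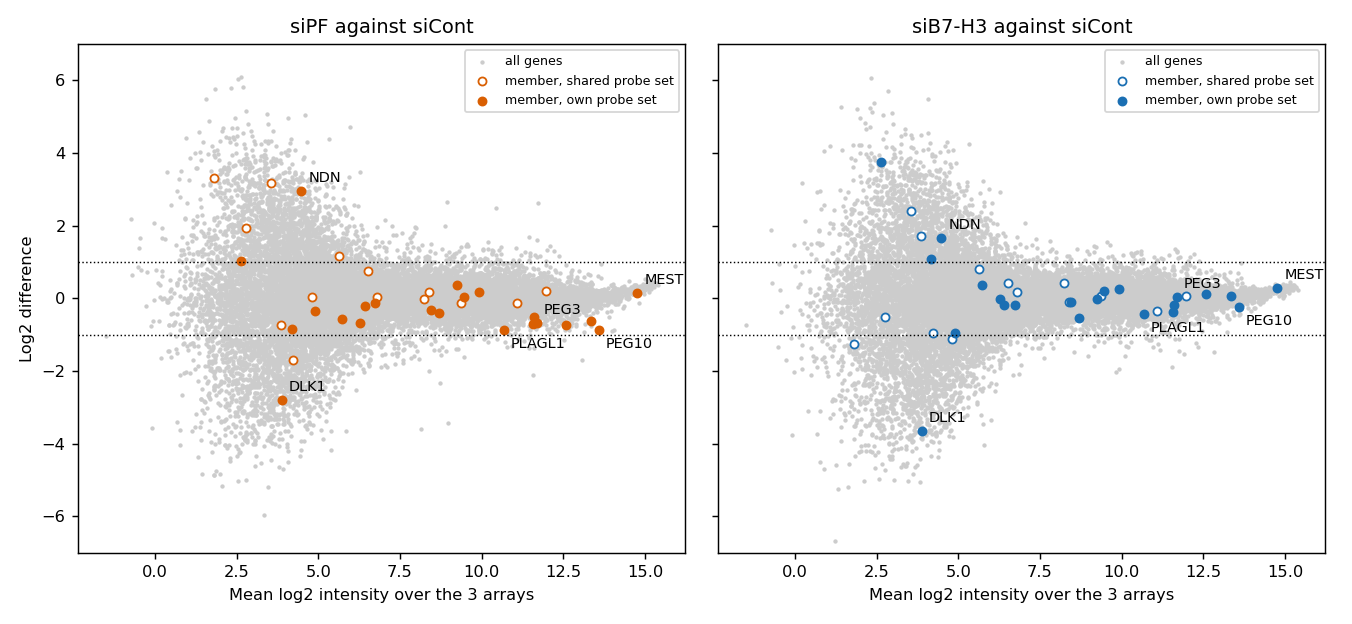
Log2 difference against siCont on the y axis and mean log2 intensity over the 3 arrays on the x axis, for siPF on the left and siB7-H3 on the right, with grey points for all genes, filled circles for member probe sets named with 1 gene and open circles for shared ones. Gene names in the panels mark the probe set named with that gene alone that has the largest absolute difference in siPF. NDN (209550_at) and DLK1 (235600_at) lie in the wide part of the grey cloud at low level. PEG3 (209243_s_at), PEG10 (212094_at) and PLAGL1 (207943_x_at) lie in the lower part of the cloud at high level in siPF, between -0.87 and -0.68. The brightest probe sets of PEG3 (209242_at) and PLAGL1 (209318_x_at) were at -0.62 and -0.52.

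Promoter sequence was available in the RefSeq table for 6 members, with 19 windows of 300 bases (250 before the start of transcription and 50 after it) on GRCh38.p14, and DLK1, PEG3 and PEG10 had no entry. The windows were searched on both strands for TGCCGC, the letters that ZFP57 reads on methylated imprinting control regions. It was found in 11 of the 19, several of which overlap, from MEST, MEG3, NDN, PLAGL1 and SNRPN, and in 16.7% of all 35116 windows. Overlapping windows repeat the same site, and TGCCGC itself holds a CpG. No share matched for CpG was taken, so the 11 of 19 cannot be weighed against the 16.7%. The windows below are shown because they belong to the brighter members that have an entry, and for each gene the one shared with its partner RNA (HYMAI for PLAGL1, SNURF for SNRPN) or else the one richest in CpG was taken. Matches of TGCCGC on either strand, and of TGACGTCA, the cAMP response element, are in capitals. PLAGL1 lies at chr6:144008210-144008509 on the minus strand, MEST at chr7:130491835-130492134, SNRPN at chr15:24954737-24955036 and MEG3 at chr14:100825858-100826157, all on the plus strand.
PLAGL1: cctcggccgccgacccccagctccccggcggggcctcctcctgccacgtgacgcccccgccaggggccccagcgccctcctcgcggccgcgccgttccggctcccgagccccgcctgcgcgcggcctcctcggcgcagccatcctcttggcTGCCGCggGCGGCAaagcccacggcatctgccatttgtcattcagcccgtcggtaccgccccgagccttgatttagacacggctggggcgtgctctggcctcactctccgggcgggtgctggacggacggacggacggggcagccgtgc
MEST: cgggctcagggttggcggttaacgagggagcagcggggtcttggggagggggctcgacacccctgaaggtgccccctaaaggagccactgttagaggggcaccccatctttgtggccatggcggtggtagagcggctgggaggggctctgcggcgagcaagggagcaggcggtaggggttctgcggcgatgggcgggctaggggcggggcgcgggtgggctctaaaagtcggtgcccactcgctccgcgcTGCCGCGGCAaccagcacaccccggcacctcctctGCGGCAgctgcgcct
SNRPN: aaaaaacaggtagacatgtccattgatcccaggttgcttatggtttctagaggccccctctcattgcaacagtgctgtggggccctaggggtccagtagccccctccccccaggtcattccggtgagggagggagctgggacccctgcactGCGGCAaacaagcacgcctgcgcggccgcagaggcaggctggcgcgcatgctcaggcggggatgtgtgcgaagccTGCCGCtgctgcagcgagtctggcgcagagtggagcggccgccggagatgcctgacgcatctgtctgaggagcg
MEG3: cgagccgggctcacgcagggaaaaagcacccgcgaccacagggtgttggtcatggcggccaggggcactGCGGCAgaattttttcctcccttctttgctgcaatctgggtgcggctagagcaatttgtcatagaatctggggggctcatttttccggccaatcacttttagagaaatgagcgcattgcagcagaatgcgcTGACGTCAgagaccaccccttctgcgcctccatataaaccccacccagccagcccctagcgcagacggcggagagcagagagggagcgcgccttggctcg

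In these windows PLAGL1 had 39 CpG dinucleotides, MEST 25, MEG3 19 and SNRPN 18, where the median of all windows was 14, and the H19 window had 6. The MEST and MEG3 windows were picked for their CpG, so their counts cannot be weighed against that median. The windows not printed had 2 to 31 in PLAGL1, 13 to 22 in MEST, 17 and 18 in MEG3 and 2 to 11 in SNRPN. TGCCGC occurred 3 times in MEST, where a pair of matches on opposite strands overlap, 2 times each in PLAGL1 and SNRPN, and 1 time in MEG3. TGACGTCA, held by 1.85% of all windows, was found in MEG3. AAGATGGC, the letters read by YY1, was found in another SNRPN window and in 2.89% of all windows. GTCACGC, a core of the paired domain of PAX proteins, was in 2.52% of all windows, and the palindrome of their homeodomain, TAAT followed by ATTA, in 0.45% with 2 bases between and in 0.36% with 3. None of these 3 was found in any window of the members. A match is a run of letters and no site of binding, and no factor or methylation was measured here.

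Of 57 other imprinted genes listed from general knowledge, 48 had a probe set of their own. With 1 probe set counted per gene, no bright one reached 2-fold. Other probe sets of some bright genes did, in either direction, such as those of COPG2 at 1.51 and of CASD1 at -2.56 in siPF. In siPF 4 of the 48 were at least 2-fold higher and 5 lower, where 9.72% and 9.39% of all genes were. In siB7-H3 3 were higher and 9 lower, where 8.75% and 9.45% of all genes were. All of these were under the 60th percentile on the arrays compared. Where the higher array reached that percentile, 10 lay above and 12 below siCont in siPF and 12 above and 11 below in siB7-H3, with none past 2-fold. The median log2 difference of the 48 was -0.05 in siPF and -0.04 in siB7-H3. HYMAI, the non-coding RNA that shares the PLAGL1 promoter, had an intensity of 253 with siCont, 254 with siPF and 261 with siB7-H3, a near equality on the arrays where PLAGL1 was lower with siPF. PEG3-AS1, the antisense RNA of PEG3, had 828, 733 and 1062, or -0.17 and 0.36. The bright gene furthest from siCont was KCNQ1OT1, a non-coding RNA of the CDKN1C region, at 344 with siCont, 674 with siPF and 518 with siB7-H3, or 0.97 and 0.59, but its other probe sets ran from -0.47 to 2.26 in siPF. KCNQ1OT1, PEG3-AS1, CASD1, SMCHD1, ZFP57, UHRF1, CTCF and TRIM28 are named after their values were seen.

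Of 24 genes that set or maintain imprints, 22 had a probe set of their own, and 19 of these were bright. Of the 22, 2 were at least 2-fold higher and 1 lower in siPF, where 9.72% and 9.39% of all genes were. In siB7-H3 1 was higher and 2 lower, where 8.75% and 9.45% of all genes were. All of these but 1 in siPF were dim. Where the higher array reached the 60th percentile, 12 lay above and 7 below siCont in siPF, and 7 above and 12 below in siB7-H3, with median log2 differences of 0.04 and -0.03. The 1 past 2-fold among them, where 2.50% of all genes under this level rule were in siPF, was DNMT1, the maintenance DNA methyltransferase that copies methylation at replication. Its single probe set had an intensity of 2576 with siCont, 5207 with siPF and 4755 with siB7-H3. Both knockdown arrays were above siCont, by 1.02 and 0.88, and with each array centred on its median the siPF difference was 0.99, under 2-fold. UHRF1, which guides DNMT1 to newly replicated DNA, had 12995, 14755 and 12304, or 0.18 and -0.08.

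SMCHD1, which silences some imprinted clusters, was lower in siPF at its brightest probe set, with an intensity of 2033 with siCont, 1222 with siPF and 1897 with siB7-H3, or -0.74 and -0.10, but its other 5 probe sets ran from -0.72 to 0.71 in siPF. CTCF, the insulator protein of the IGF2 and H19 region, had 2315, 2519 and 2475, or 0.12 and 0.10. TRIM28, the corepressor that ZFP57 brings to imprinted regions, had 4099, 4211 and 3849, or 0.04 and -0.09. ZFP57 itself was dim at 9.57, 5.48 and 4.22.

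**Figure D4:**
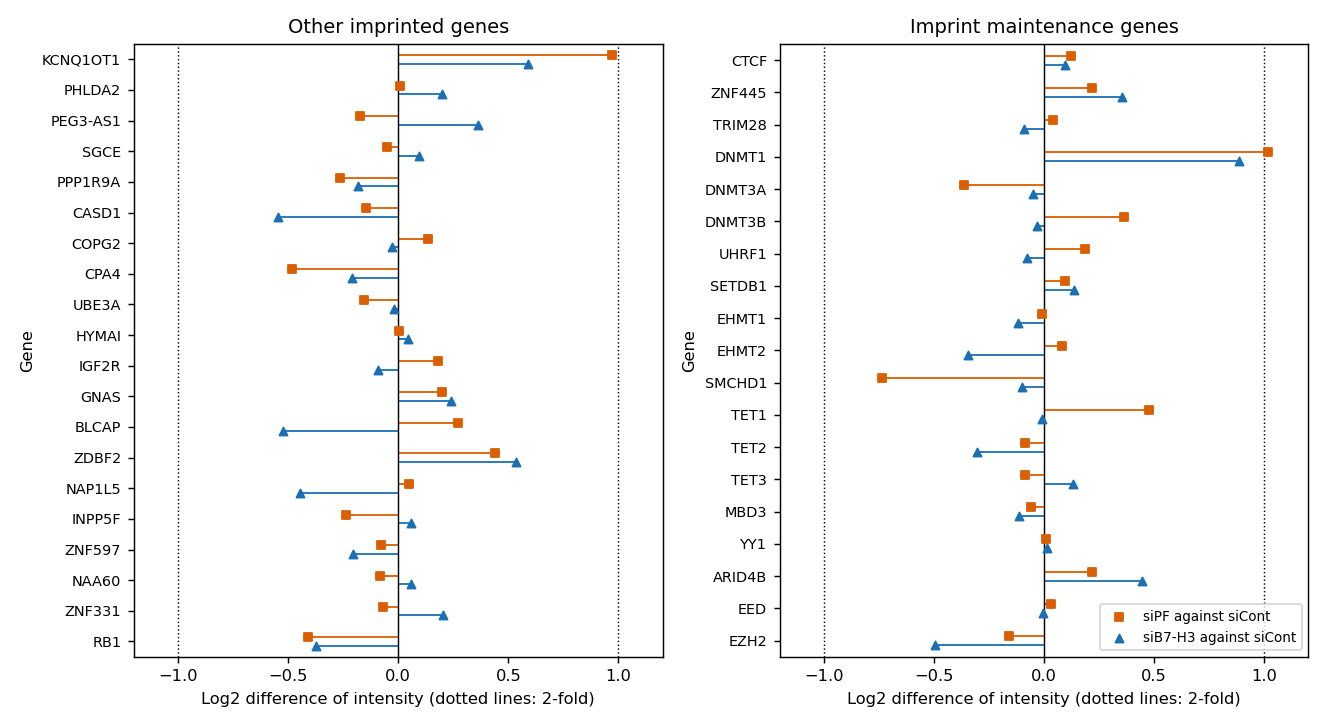
Log2 difference of intensity against siCont on the x axis for the listed genes that were bright on all 3 arrays, other imprinted genes on the left and genes that set or maintain imprints on the right, with squares for siPF, triangles for siB7-H3 and dotted lines at 2-fold. The siPF point of DNMT1, at 1.02, is the only point past a dotted line.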

How the data were processed

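Rh-30 total RNA was hybridized to Affymetrix GeneChip U133 Plus 2.0 arrays, a single array per siRNA (siCont, siPF and siB7-H3), grouped by title. The authors deposited linear intensities for all probe sets, which they made with Affymetrix Expression Console 1.4.1 per the submitters' processing notes. The summarization method and scaling target are not given in the sources used here. A mean trimmed by 2% at either end came to 500.1 for all 3 arrays, and the medians were 70.4, 71.6 and 70.5. Such common scaling hides any change in total RNA per cell.

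The intensities were taken to log2 here with no floor and no pseudocount. Of 54675 probe sets, 62 controls were left out, 41091 were named with 1 gene, 1801 with several and 11721 with none by the platform annotation, whose older symbols were updated. A gene was given by its probe set of highest mean log2 intensity among those named with it alone. The value of siCont was subtracted, and 2-fold was the threshold. Under the level rule, the brighter of the arrays compared had to lie at or over its 60th percentile. The number of arrays limits the precision, and no test was made.

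The members and lists were chosen with earlier results of these data known. The text names all members, fixed neighbours at their loci, listed genes past 2-fold under the level rule, the siRNA targets, markers of cell types from fixed lists and the 3 genes most like PEG10. Genes named outside this rule are marked. Promoter and miRNA sequences came from RefSeq tables on GRCh38.p14. The alternatives covered the choice of probe set, scaling, floor, level and threshold. Computations ran in Python 3.11.15 with pandas 2.3.3, numpy 2.4.6 and scipy 1.17.1, and plots were drawn with matplotlib 3.10.9. The choice of probe set and the 2-fold calls were tested on simulated data with known differences. These lay in genes of high level with little noise, so the test says nothing of the noise in dim genes.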

Additional observations from a re-analysis of the deposited data

How the results depend on the processing

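With 1 array per condition nothing can be said of replicate error, and the dim probe sets carry the counts past 2-fold. No paired analysis was possible because each condition had 1 array. PEG3, PEG10 and PLAGL1 stayed lower in siPF than in siCont under every alternative run, between -0.65 and -0.62, between -0.91 and -0.80 and between -0.70 and -0.50 on the log2 scale. The floor and the level rules could not move these values, because their probe sets are bright on every array. Over the alternatives for single members, 177 values kept their side of 2-fold and their direction where past it, 6 came to pass 2-fold and 5 ceased to, all of DLK1, H19 or NDN. PLAGL1 and H19 had no value without probe sets ending in _x_at or _s_at. The count of 5 bright members kept within 1.5 times of itself in each alternative.

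The 2 members past 2-fold in siPF became 0 with a floor at the 60th percentile and with the level rule at the 60th or 50th percentile, and 4 at 1.5-fold, while their split of 2 higher and 0 lower became 1 and 1 with the median over probe sets and without probe sets ending in _x_at or _s_at. The 1 in siB7-H3 became 3 with the median over probe sets, 2 without probe sets ending in _x_at or _s_at, 0 with the floor or either level rule, and 3 at 1.5-fold. The 1 of siPF against siB7-H3 became 2 with the median over probe sets, 0 with the floor or either level rule, and 5 at 1.5-fold. Of the other imprinted genes, the 9 in siPF and the 12 in siB7-H3 became 0 with the floor and with the level rule at the 60th percentile, and 2 each at the 50th. Of the genes that maintain imprints, the 3 in siPF became 1 with the floor or either level rule and 5 at 1.5-fold. They became 2 with each array centred on its median, where DNMT1 was at 0.99, and 2 without probe sets ending in _x_at or _s_at, which leaves DNMT1 out. The 3 in siB7-H3 became 0 with the floor or either level rule. The share of all genes past 1.5-fold was not taken, so the counts at 1.5-fold are not weighed.

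The median of the members in siPF, -0.33, became 0.054 with the floor, -0.52 with either level rule and 0.16 with shared probe sets allowed. In siB7-H3, 0.26 became -0.0038 with the median over probe sets, -0.0032 without probe sets ending in _x_at or _s_at, 0.088 with quantile normalization, 0.025 with the floor and 0.079 with the level rule at the 60th percentile. The floor sets dim members to a common value and the level rule removes them. The cause of the other shifts was not tested.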
